A study of Homo sapiens with 2 samples.

Results

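The microRNA genes described here lie in the imprinted region of human chromosome band 14q32 that holds MIR544A, the gene of the microRNA at which both treatments of the study are directed. A member is a gene whose symbol begins with MIR, which the array's probe table names and which RefSeq (GRCh38.p14) places as a microRNA gene inside a fixed window of chromosome 14. The first member, MIR2392, starts at base 100814491, and the last, MIR656, ends at base 101066801. The rule uses position only, no measured value. It gave 52 members of 1072 microRNA genes and 14884 genes named on the array in all. RefSeq lists 53 microRNA genes in this window, and the remaining one, MIR433, is not analysed here. The nearest microRNA genes outside the window are MIR345, at 6.66 and 6.34 on the arrays described next, and MIR1247, at 6.19 and 6.27, while the members just inside it, MIR2392 and MIR656, were at 7.80 on both and at 3.78 and 4.06.

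RNA came from MDA-MB-231, an established human breast cancer cell line. Cells were given an antagomir against miR-544 (an oligonucleotide that pairs with a mature microRNA) or compound 1, a small molecule that the study directs at the precursor of the same microRNA, 24 hours ahead of 5 days in hypoxia with oxygen below 1%. Each treatment is represented by 1 array of pooled RNA, and the pool is described as 3 samples. Cell line, hypoxia and labelling were the same for both, no untreated or normoxic array was used here, and the sources used here give no doses. A design of 1 array for each treatment allows no test, so every difference below describes these 2 arrays, and treatment, pool and hybridisation cannot be told apart. In RNA of a whole culture, fewer cells that carry a transcript and less of it per cell cannot be told apart either.

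All values are deposited signals, 1 per transcript cluster (a set of probes for 1 transcript), on a scale taken as log2. Array medians over 53617 clusters were 5.59 for the antagomir and 5.62 for compound 1. The cell line label was checked against markers: the 5 named mesenchymal markers (VIM, CD44, AXL, MSN and FN1) all lay above both medians, between 9.04 and 12.8. The hormone receptor genes ESR1 and PGR, luminal markers, lay below both, at 5.31 and 4.77 with the antagomir and at 5.21 and 4.77 with compound 1. In all, 5 of the 7 named luminal markers lay above the medians, with the keratin gene KRT18 at 11.3 and 11.2. Among protein-coding genes 78.7% with the antagomir and 79.0% with compound 1 lay at or above the medians, so these counts say little about the label. Markers of other cells were few: CD14 of leukocytes was at 5.18 and 5.48, PECAM1 and VWF of endothelium were at 5.32 and 5.74 with the antagomir and at 5.57 and 5.81 with compound 1, and 0 of 3 fibroblast markers were named.

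A microRNA is cut from a hairpin in a longer primary transcript, first by the nuclear Drosha and DGCR8 complex and then by Dicer in the cytoplasm. It guides Argonaute proteins to messenger RNAs, mainly through its seed, bases 2 to 8 of the mature strand. In the 14q32 region, also known as the DLK1-DIO3 domain, long non-coding RNAs such as MEG3, many small nucleolar RNAs and the microRNAs are transcribed from the maternal chromosome, whereas the protein-coding genes DLK1, RTL1 and DIO3 are expressed from the paternal one. Many of its hairpins arose by duplication, so several resemble each other. An array signal for such a gene is a level of RNA that matches the hairpin and gives no measure of each mature arm.

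RefSeq's table for GRCh38.p14 held mature sequences for all 52 members (94 arms with 79 distinct seeds) and hairpins for 48 of them. The target of the study comes first. The MIR544A hairpin lies at chr14:101048658-101048748 on the plus strand and is 91 bases long. Below it are the mature strands of miR-544a and of miR-544b, whose gene is on chromosome 3, with the seed in capitals, and in the hairpin the capitals mark the mature strand.
MIR544A hairpin: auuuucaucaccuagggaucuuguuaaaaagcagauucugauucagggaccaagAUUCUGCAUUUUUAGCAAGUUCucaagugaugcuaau
hsa-miR-544a: aUUCUGCAuuuuuagcaaguuc
hsa-miR-544b: aCCUGAGGuugugcauuucuaa
The seeds of miR-544a and miR-544b differ, and their hairpins are 50.5% identical. No other mature strand in the RefSeq table shares the miR-544a seed, in this region or elsewhere.

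Seeds shared within the region are shown next because they tie members into groups. A shared seed was found in 3 members for each of 2 seeds, and in 2 members for each of 11 more. The groups of 3 are the strands that begin AGGUUGUC and the miR-376 strands, which are known to be edited from adenosine to inosine inside the seed.
hsa-miR-494-5p: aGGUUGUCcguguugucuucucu
hsa-miR-323b-5p: aGGUUGUCcguggugaguucgca
hsa-miR-410-5p: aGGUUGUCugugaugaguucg
hsa-miR-376a-3p (genes MIR376A1 and MIR376A2): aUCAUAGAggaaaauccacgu
hsa-miR-376b-3p: aUCAUAGAggaaaauccauguu
The MIR329 pair and the MIR1185 pair each share a seed on both arms, so each enters the next count for 2 seeds. Over all members 67.3% were higher on the compound 1 array, and 53.9% of all pairs of members had the same sign. Of the 11 seeds found in 2 members, 8 had both genes higher there, 2 had 1 higher and 1 lower, and 1 had both lower. That one, of miR-379-3p and miR-411-3p, is printed as the exception, chosen after its values were seen.
hsa-miR-379-3p: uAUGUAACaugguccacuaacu
hsa-miR-411-3p: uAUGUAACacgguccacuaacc

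Some hairpins are close copies, which limits how far their signals can be assigned to 1 gene. Of 1128 pairs of members, 5 had hairpins at least 80% identical, and MIR1185-1 with MIR1185-2 (97.7%) and MIR329-1 with MIR329-2 (94.0%) were above 90%. The MIR1185 hairpins are printed because 1 of them had the largest difference of all members, with both mature strands in capitals.
MIR1185-1 hairpin (chr14:101042977-101043062, plus strand): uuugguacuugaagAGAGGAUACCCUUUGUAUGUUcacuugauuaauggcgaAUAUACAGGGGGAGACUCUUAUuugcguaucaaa
MIR1185-2 hairpin (chr14:101044198-101044283, plus strand): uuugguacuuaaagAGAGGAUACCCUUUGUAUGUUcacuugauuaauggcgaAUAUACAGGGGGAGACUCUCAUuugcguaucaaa
The strands of the next 4 members by size of difference that have a hairpin partner in the region follow, since their partners went the same way in 1 case and opposite ways in the other.
hsa-miR-323a-3p: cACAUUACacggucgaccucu
hsa-miR-323b-3p: cCCAAUACacggucgaccucuu
hsa-miR-543: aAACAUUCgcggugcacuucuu
hsa-miR-495-3p: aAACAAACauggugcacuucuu

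Most members gave a low signal on both arrays. The median member was at 3.77 with the antagomir and at 3.86 with compound 1, and 13 of 52 members (25.0%) lay at or above the array median on each. Among the 1020 other microRNA genes the medians were 4.64 and 4.64, with 33.7% and 34.2% at or above the array median. Members ranged from 1.49 to 7.91 with the antagomir and from 1.64 to 8.33 with compound 1. Over the 52 members the arrays correlated with r = 0.981, and over the other microRNA genes with r = 0.982, a description across genes that share the same 2 hybridisations.

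MIR544A itself differed little between the arrays. Its signal was 4.78 with the antagomir and 4.83 with compound 1, a log2 difference (compound 1 minus antagomir, here and below) of 0.045. Both values lie under the array medians, above 34.2% and 34.3% of all clusters, and 17 members had a higher signal on each array. Its difference ranked 3 from the smallest in size among the 52 members, and 133 of the 1020 other microRNA genes had a smaller one. Its sign depended on the scaling, with 0.015 after centring, 0.0049 after quantile normalization and -0.029 after cyclic loess. MIR544B on chromosome 3 was at 3.52 and 3.60, a difference of 0.081.

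**Figure D1:**
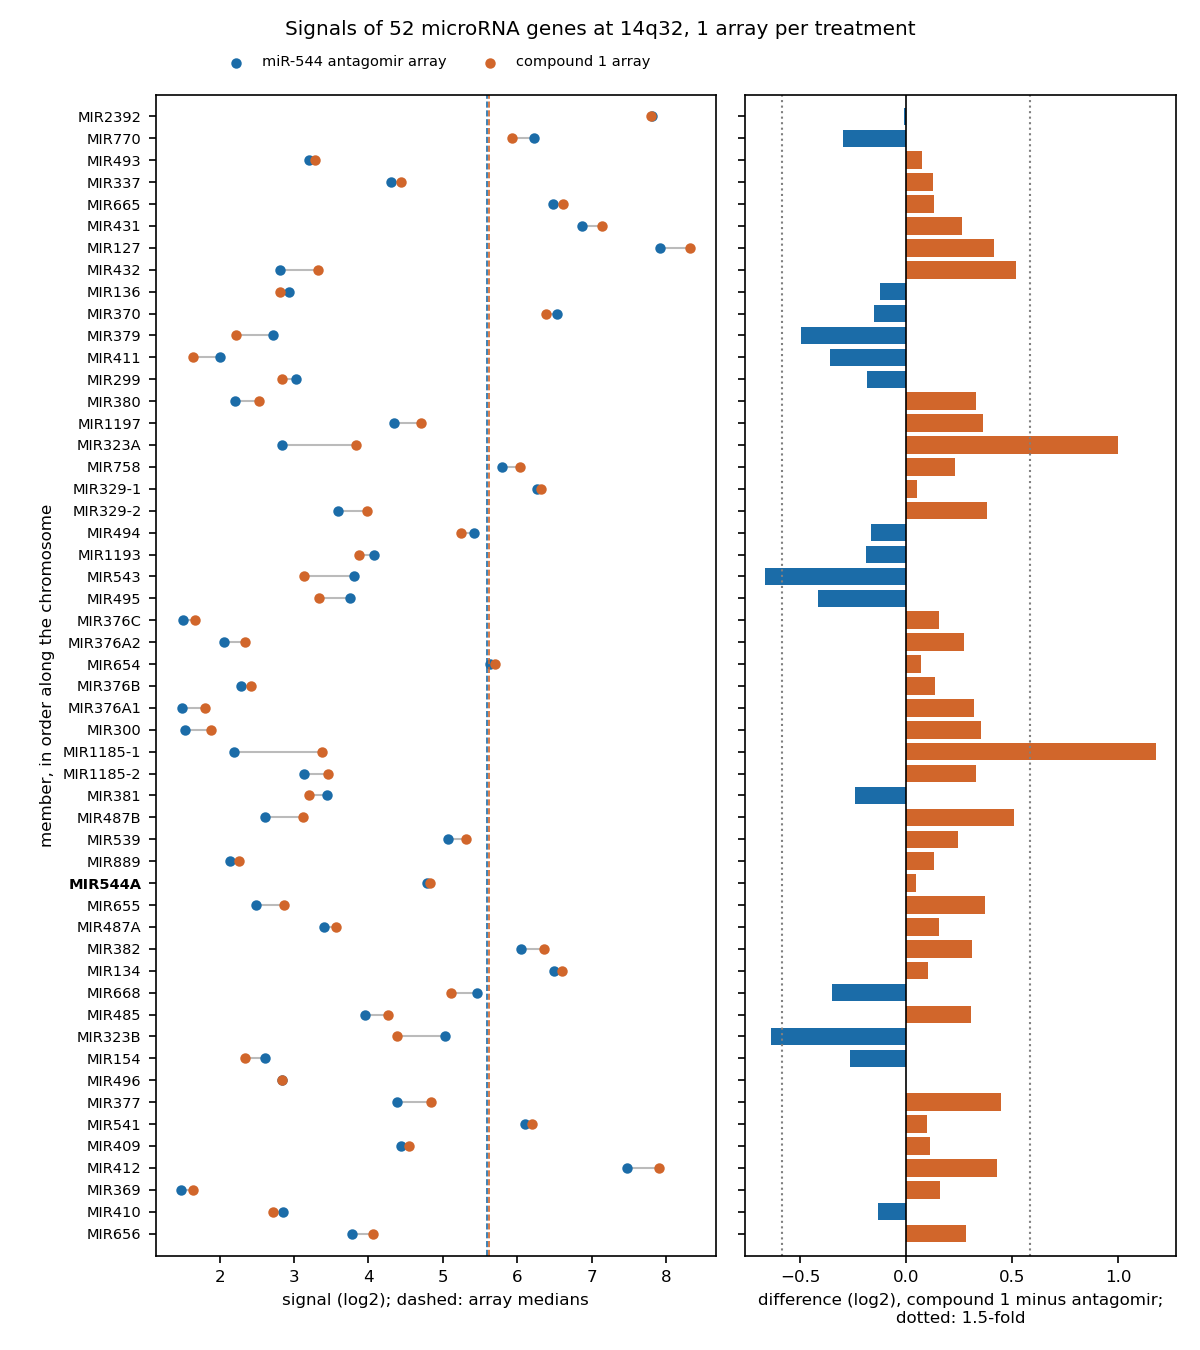
Left, log2 signal of each of the 52 members on the antagomir array (blue) and the compound 1 array (orange), from MIR2392 at the top to MIR656 at the bottom in chromosomal order, with dashed lines at the array medians of 5.59 and 5.62. Right, log2 difference, compound 1 minus antagomir, with dotted lines at 1.5-fold; 35 bars point to compound 1 and 16 to the antagomir, and MIR544A (bold) is at 0.045.

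As a group the members leaned slightly to the compound 1 array. Signals were higher there in 35 members, lower in 16 and equal in 1 (36 higher after quantile normalization and 34 after cyclic loess). That is 67.3% higher, where 59.7% of the other microRNA genes were higher and 36.5% lower, and 46.4% of all named genes were higher and 51.5% lower. The median difference was 0.13 for the members, 0.081 for the other microRNA genes and -0.0093 for all named genes. It was 0.10 for the members after centring, 0.078 after quantile normalization and 0.053 after cyclic loess, when the other microRNA genes had 0.051, 0.057 and 0.037. After centring, quantile normalization and cyclic loess, 67.3%, 69.2% and 65.4% of the members were higher. The other microRNA genes then had 56.2%, 57.1% and 54.5%, and all named genes 41.0%, 51.7% and 49.3%. The median of the members therefore lay close to that of microRNA genes elsewhere, while their share of higher genes was larger in each setting. Neither was tested.

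Few members passed a fold threshold. Past 1.5-fold, 2 of 52 members were higher on the compound 1 array and 2 lower, against 7.55% higher and 4.41% lower among the other microRNA genes and 1.36% and 0.907% among all named genes. Past 2-fold, 1 member was higher and 0 lower, against 1.67% and 1.08% of the other microRNA genes and 0.195% and 0.101% of all named genes. After cyclic loess MIR379 was lower past 1.5-fold too, which made 3 members. Counts this small do not show whether the members differ from other microRNA genes in these shares, which was not tested.

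The widest difference was that of MIR1185-1, at 2.19 with the antagomir and 3.37 with compound 1 (2.26-fold, difference 1.18). Its near copy MIR1185-2 was at 3.13 and 3.46, a difference of 0.33. Both were higher with compound 1, but the sizes differ although the hairpins differ in few bases. MIR323A, whose microRNA is known from placenta and brain, was at 2.83 and 3.83, a difference of 0.998 that lies just under the 2-fold threshold. These 4 values of MIR1185-1 and MIR323A all lie below the array medians.

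On the other side, MIR543 was at 3.80 with the antagomir and 3.14 with compound 1 (1.59-fold, difference -0.67). MIR323B was at 5.02 and 4.39 (1.55-fold, difference -0.64). MIR379, the first hairpin of the long downstream block, was at 2.72 and 2.22, a difference of -0.50. MIR495 was at 3.75 and 3.34, a difference of -0.42. So MIR543 and its hairpin partner MIR495 (80.5% identical) were both lower with compound 1, while MIR323A and its partner MIR323B (80.2% identical) had opposite signs. Each of these signs was the same under the 3 scalings.

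Of the 10 largest differences, 6 were higher on the compound 1 array and 4, those just given, lower. The shares to set beside these are 59.7% higher and 36.5% lower among the other microRNA genes. MIR432 was at 2.80 and 3.32 (difference 0.52). MIR487B was at 2.62 and 3.12 (0.51). MIR377 was at 4.39 and 4.83 (0.45). MIR432 lies antisense to RTL1, whose gene is described below. MIR412 completes the 10 and is given among the highest signals.

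**Figure D2:**
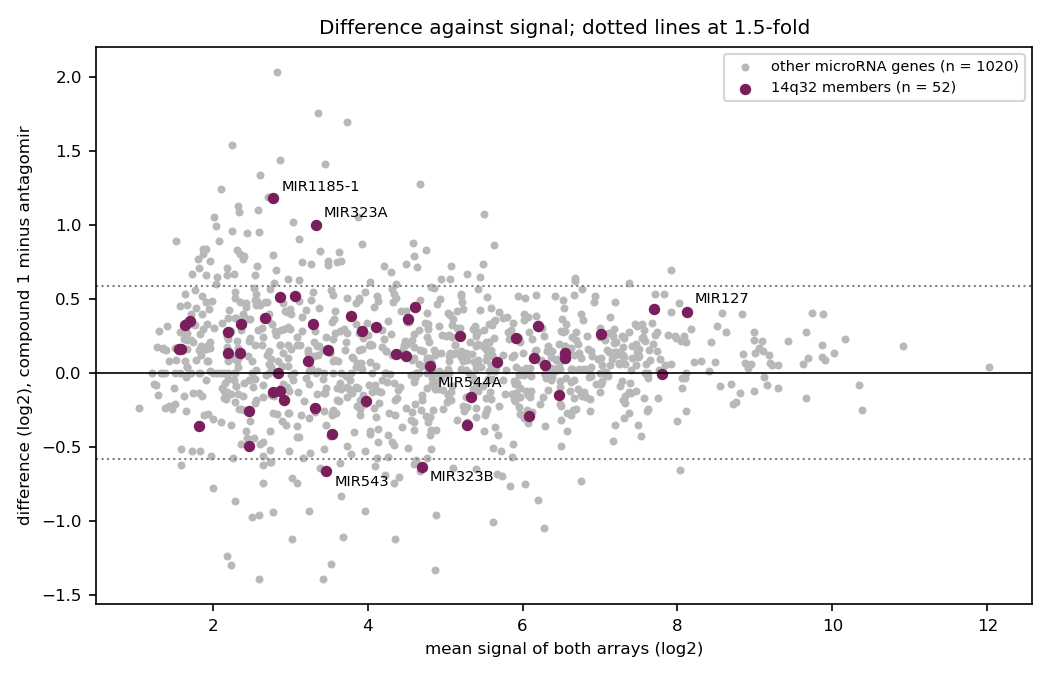
Log2 difference, compound 1 minus antagomir, against the mean log2 signal of both arrays for the 52 members (purple) and the 1020 other microRNA genes (grey), with dotted lines at 1.5-fold. MIR1185-1 and MIR323A lie above the upper line and MIR543 and MIR323B below the lower one, all at mean signals under 5, where the grey points also spread widest.

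Differences spread most at low signal, for members and other microRNA genes alike. Among members with a mean signal of 5 or more (16 genes) the robust SD of the differences (scaled median deviation) was 0.23 and 0 passed 1.5-fold. The 449 other microRNA genes at that signal also had 0.23, and 11 were higher and 11 lower past 1.5-fold. From 3 to below 5 the robust SD was 0.34 for 18 members and 0.38 for 300 others, and below 3 it was 0.32 for 18 members and 0.38 for 271 others. The members were higher on the compound 1 array in 11, 13 and 11 of 18, 18 and 16 genes, from the lowest to the highest range, and their medians were 0.15, 0.14 and 0.100. The other microRNA genes had medians of 0.12, 0.028 and 0.082 in these ranges, and 60.1%, 51.3% and 65.0% of them were higher.

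How far clusters of the same gene differ gives only a rough scale for these values. Such clusters share the same 2 hybridisations and pools, so their gaps leave out the variation between arrays that a replicate would show. For 96 microRNA genes the array holds 2 or more clusters with different values. Between the clusters of a gene that lay furthest apart, the median gap in difference was 0.17, the 90th percentile was 0.76, and 57 of the 96 pairs (59.4%) had the same sign. Among the members, 32 had a difference larger in size than this median gap, and 2 (MIR1185-1 and MIR323A) exceeded the 90th percentile. A gap between 2 differences is no cutoff for a single difference. The only member with 2 clusters was MIR376A1, at 1.49 and 1.81 in the first and 1.43 and 1.73 in the second, differences of 0.32 and 0.29. MIR496 had the same value, 2.84, on both arrays, for which no reason is given.

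The 10 members with the highest signals come next, in an order of signals from different probes and not of expression. Of these, 8 were higher on the compound 1 array, a share to be read beside 11 of 16 members (68.8%) and 65.0% of 449 other microRNA genes with a mean signal of 5 or more. MIR127, whose microRNA pairs perfectly with the RTL1 messenger RNA from the opposite strand, was at 7.91 and 8.33 (1.33-fold, difference 0.41). MIR412 was at 7.48 and 7.91 (1.34-fold, difference 0.43). MIR431, also antisense to RTL1, was at 6.88 and 7.14 (difference 0.26). MIR127 and MIR412 thus had the widest differences among the 10 highest signals, and neither reached 1.5-fold.

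MIR2392, the first member of the window, was at 7.80 on both arrays (difference -0.0084, turned to above 0 by quantile normalization and cyclic loess). MIR665 was at 6.48 and 6.62, and MIR370 at 6.54 and 6.39. MIR134, whose microRNA restrains dendritic spine size in neurons, was at 6.50 and 6.60. Among these 4 the widest difference was that of MIR370, -0.15.

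MIR382 was at 6.05 and 6.36 (difference 0.31). MIR541 was at 6.10 and 6.20 (0.098). MIR329-1 was at 6.27 and 6.32 (0.053), and its near copy MIR329-2 at 3.59 and 3.98 (0.38). The MIR329 genes carry the same mature strands, and whether their unequal signals come from the probes or from the precursors was not tested. Of the 10, MIR2392 and MIR370 were the 2 that were lower with compound 1.

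At the low end, MIR369 was at 1.49 and 1.65, and its 3′ strand is known to recruit Argonaute to AU-rich elements in starved cells. MIR376C was at 1.51 and 1.67, and MIR300 at 1.53 and 1.88. MIR411 was at 2.00 and 1.64. These signals lie near the floor of the arrays, whose lowest values were 0.61 and 0.37, and 4 of the 5 lowest members, with MIR376A1, were higher with compound 1. Below a mean signal of 3, 61.1% of 18 members and 60.1% of 271 other microRNA genes were higher.

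The miR-376 seed group was higher on the compound 1 array in 3 of 3 members. MIR376A2 was at 2.06 and 2.33 (difference 0.27), MIR376B at 2.29 and 2.42 (0.13) and MIR376A1 at 1.49 and 1.81 (0.32), with a group median of 0.27. The AGGUUGUC group was lower in 3 of 3 members, with a median of -0.17. MIR494 was at 5.42 and 5.25 (difference -0.17) and MIR410 at 2.85 and 2.72 (-0.13), beside MIR323B above. MIR379 and MIR411, which share the 3′ seed printed above, were lower as well, with a median of -0.43. Genes of a group are related by sequence in their seed, and no group was tested. Over all members 67.3% were higher. The miR-376 genes also lie inside a run of 8 higher members, from MIR376C to MIR1185-2, and have low signals. MIR379 and MIR411 are neighbours inside a run of lower members, from MIR136 to MIR299, and have low signals too. Seed, position and low signal cannot be told apart for these genes or for the miR-376 genes.

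The other 21 members ranged from 2.13 to 6.23 with the antagomir and from 2.26 to 6.03 with compound 1. Of these, 13 were higher with compound 1, 7 lower and 1 equal, with differences between -0.35 and 0.37. Among the other microRNA genes of the array 59.7% were higher and 36.5% lower.

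The region falls into an upstream block from MIR2392 to MIR370 and a downstream block from MIR379 to MIR656. The 10 upstream members had median signals of 6.35 and 6.16, with 6 of 10 at or above the median on each array. The 42 downstream members had 3.52 and 3.51, with 7 of 42. Hairpins of the upstream block were richer in G and C bases (median 56.4% in 8 with a sequence, against 41.1% in 40). Differences were alike, with medians of 0.10 (6 of 10 higher) and 0.14 (29 of 42 higher).

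Base composition moved with the signal over all members. Hairpins held 28.8% to 65.3% G and C bases, and over the 48 with a sequence this share correlated with the mean signal with r = 0.645 (Spearman's rho 0.583). Over 836 other microRNA genes r was 0.687 (rho 0.702), so the relation had a similar size there. These are descriptions across genes on the same 2 arrays. Within the downstream block r was 0.513 over 40 members. The share of G and C bases correlated weakly with the difference, with r = -0.16 in members and -0.014 in the others.

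Set against hairpins of like composition, the members were not low throughout. Below 40% G and C, 18 members had median signals of 3.07 and 3.24, and 155 other microRNA genes 2.34 and 2.67. From 40% to below 50%, 17 members had 2.94 and 3.12 and 291 others 3.81 and 3.86. From 50% to below 60%, 9 members had 5.46 and 5.10 and 240 others 5.48 and 5.59, and at 60% or more 4 members had 6.49 and 6.61 and 150 others 7.04 and 7.04. The medians of the members thus lay above those of the others in the lowest range and below them on both arrays in each other range. Which signals reflect expression was not tested. MIR544A, at 36.3%, falls in the lowest range.

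**Figure D3:**
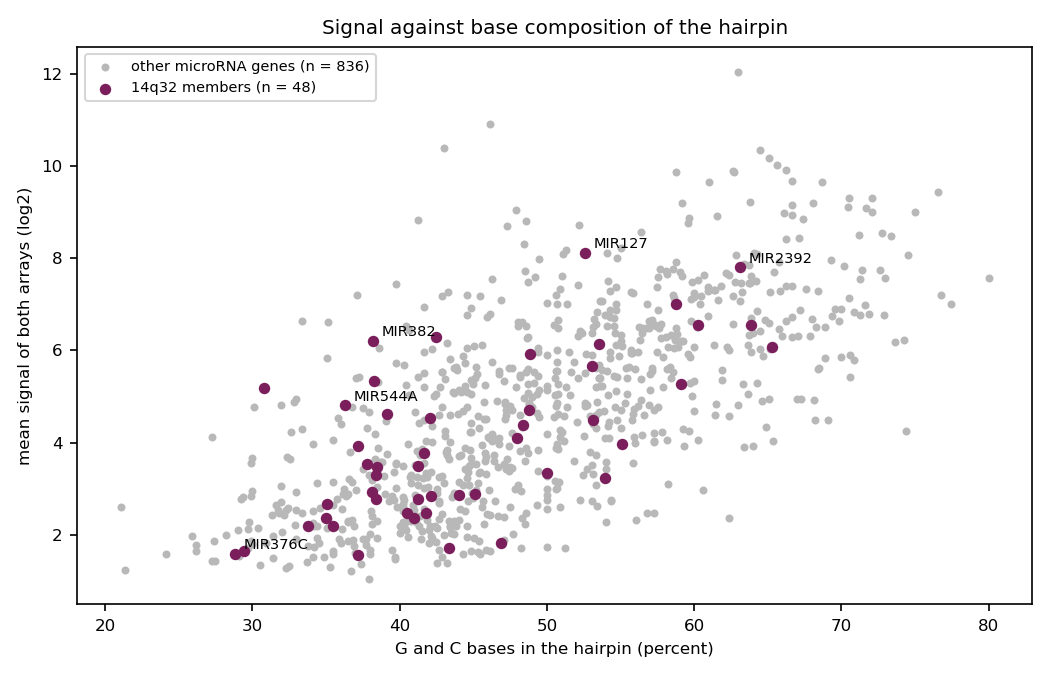
Mean log2 signal of both arrays against the percent of G and C bases in the RefSeq hairpin, for 48 members (purple) and 836 other microRNA genes (grey). Signals climb with the share of G and C bases in both sets (r = 0.645 and 0.687), with MIR376C lowest among the members in G and C bases, at 28.8%.

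Along the chromosome, neighbours often shared a sign, a pattern looked for after the values were known. Of 44 pairs of adjacent members within 5000 bases, 32 (72.7%) had differences of the same sign, and their differences correlated with r = 0.320. Of all 1326 pairs of members, 715 (53.9%) had the same sign. Adjacent microRNA genes elsewhere within the same distance had the same sign in 65 of 135 pairs (48.1%, r = -0.018). These 135 pairs include 43 of the large microRNA cluster on chromosome 19, of which 18 (41.9%) had the same sign. The longest runs were 8 higher members from MIR376C to MIR1185-2 and 8 from MIR487B to MIR134, a run that holds MIR544A and that cyclic loess breaks there. The longest runs of lower members were 5 from MIR136 to MIR299, which spans the 111 kb between MIR370 and MIR379 and so is no run of close neighbours, and 4 from MIR494 to MIR495.

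The neighbour pattern changed little with the settings tried. The share was 72.2% in 36 pairs without those whose hairpins were at least 70% identical, 75.0% after centring or quantile normalization and 70.5% after cyclic loess. A member enters up to 2 pairs, so these pairs are not independent, and no test was made. Order along the chromosome is also the order of cluster numbers on the array, and these cannot be told apart here.

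The chromosome 19 cluster, like the 14q32 region a large array of related hairpins, is the nearest comparison. Its 46 named genes had median signals of 3.76 and 3.79, with 2 and 3 genes at or above the array medians. Their median difference was 0.12, with 26 higher, 17 lower and 4 past 1.5-fold in each direction. The difference between these clusters was not tested.

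The 4 genes with values that flank or host the microRNAs differed by less than 1.5-fold, with differences from -0.17 to 0.39. MEG3, the long non-coding RNA at the start of the maternally expressed unit, had 2 clusters, at 4.86 and 5.01 (difference 0.15) and at 2.04 and 2.42 (0.37). DLK1, which encodes a Notch-related inhibitor of adipocyte differentiation, was at 5.67 and 5.97 (0.30). RTL1, a gene derived from a retrotransposon and needed in the placenta, was at 8.05 and 8.14 in one cluster (0.086) and at 5.43 and 5.26 in the other (-0.17). MEG9, past the last hairpin, was at 6.77 and 6.65 (-0.11) and at 6.23 and 6.62 (0.39). The clusters of RTL1 and of MEG9 thus disagreed in sign, none of these 7 clusters passed 1.5-fold, and the sources used here do not say which strand each measures. MEG8, DIO3, DIO3OS and the SNORD112 to SNORD114 genes are not analysed here, so 4 of 48 listed genes of the region have values.

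Reference microRNA genes show how the array reads such hairpins. Of 10 named genes known for abundant microRNAs in this cell line, 4 lay above the medians. Among all microRNA genes outside 14q32 the shares at or above the medians were 33.7% with the antagomir and 34.2% with compound 1. MIR21 was at 8.87 and 8.73, MIR221 at 8.73 and 8.65, and MIR222 at 7.29 and 7.35. MIR146A, from a gene driven by NF-kappa B, was at 7.40 and 6.94. Yet MIR10B was at 2.20 on both arrays, MIR29B1 at 1.59 and 1.75 and MIR125B1 at 2.49 and 2.78, as low as many of the 14q32 members.

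Of 13 genes known as low here or restricted to other tissues, 2 lay above the medians, MIR200B (5.88 and 6.26) and the neuronal MIR124-2 (6.84 and 6.86). The shares to set beside this count are again 33.7% and 34.2%. The liver gene MIR122 was at 2.48 and 3.17 (1.61-fold, difference 0.69) in one cluster and had a difference of -0.40 in its other, and the muscle gene MIR133A1 at 3.46 and 2.71 (1.68-fold). Differences of that size therefore also occurred in genes chosen as low. MIR210, a microRNA gene induced by hypoxia, was at 8.59 and 8.50. The widest difference among the abundant genes was that of MIR29A, at 5.36 and 4.40 (1.95-fold). The list medians were -0.027 for the abundant genes and 0.21 for the low ones, of which 11 of 13 were higher with compound 1 (10 after centring), and 59.7% of the other microRNA genes were higher.

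**Figure D4:**
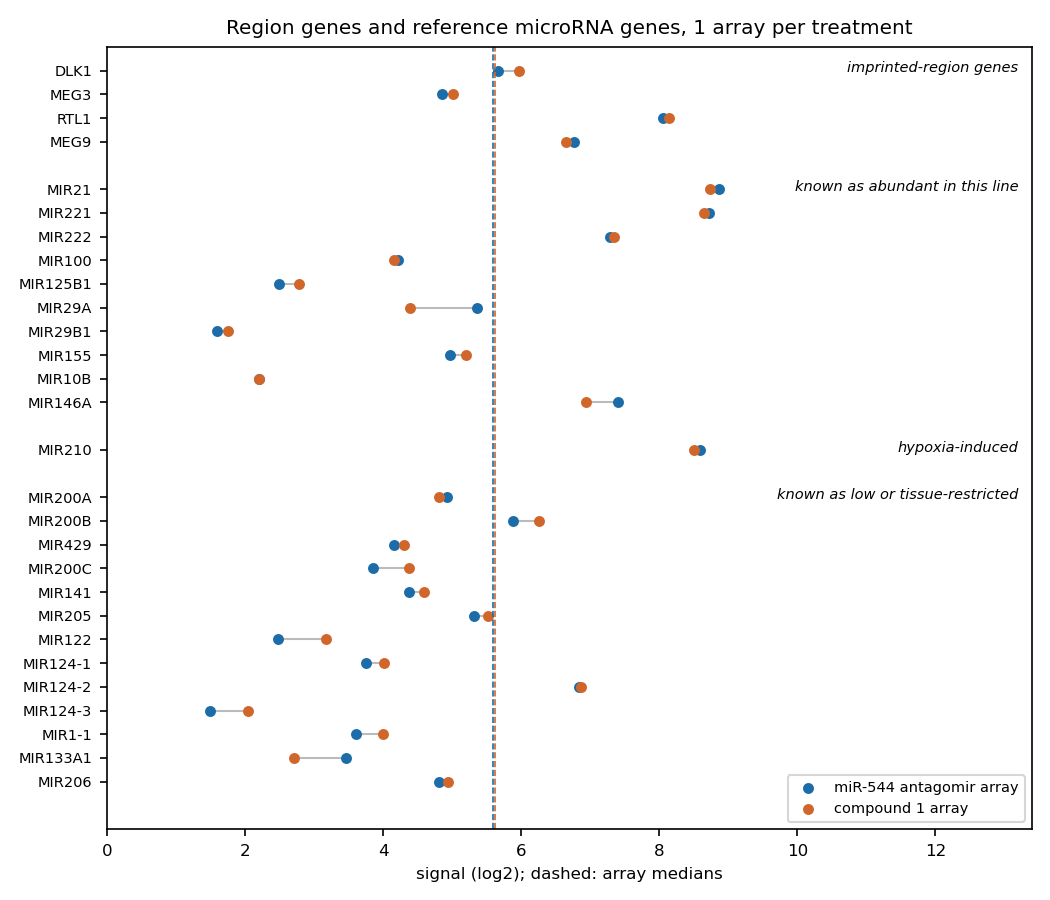
Log2 signal on the antagomir array (blue) and the compound 1 array (orange) of 4 genes of the imprinted region (the cluster with the highest mean), 10 microRNA genes known as abundant in this cell line, the hypoxia-induced MIR210 and 13 genes known as low or tissue-restricted. Dashed lines are the array medians; MIR21, MIR221, MIR222 and MIR146A lie above them, while MIR10B, MIR29B1 and MIR125B1 lie among the low genes.

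Listed genes that process microRNAs or carry out silencing differed by less than 1.5-fold between the arrays. Of 25 listed genes 14 were named, 10 of them lower and 4 higher, with a median of -0.12 and 0 past 1.5-fold. After centring 11 were lower (median -0.15), when all named genes had a median of -0.039. After either quantile normalization (median -0.058) or cyclic loess (median -0.067) 9 were lower. In the deposited values all named genes had a median of -0.0093 with 51.5% lower, and 54.3% of protein-coding genes were lower. DGCR8, which holds the hairpin for Drosha, was at 7.14 and 6.83 (difference -0.31). XRN2, a nuclear exonuclease, was at 9.44 and 9.14 (-0.30). XPO5, which exports hairpins from the nucleus, was at 10.65 and 10.49 (-0.16). The widest of these, that of DGCR8, was 1.24-fold.

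The Drosha-associated helicase genes DDX17 and DDX5 were at -0.16 and -0.12 in difference, and the Dicer partner gene TARBP2 at -0.11. Of the TNRC6 genes, which encode the Argonaute-bound silencing proteins, TNRC6B and TNRC6C were at -0.14 and -0.12 and TNRC6A at 0.15. KHSRP, which encodes a binder of hairpin loops, was at -0.14. LIN28B, a block on let-7 processing, had the widest difference, 0.53, at 3.43 and 3.96, below the array medians. DROSHA, DICER1 and the AGO genes are not analysed here.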

How the data were processed

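The authors deposited 1 log2 signal per transcript cluster and array, judged as log2 from the range (0.61 to 14.2 and 0.37 to 14.2). The sources used here do not say how background was corrected or arrays were normalized, nor the log base, and each fold assumes base 2. The labels name a standard Affymetrix labelling of 5 µg of total RNA. The series title names another array type than the whole-transcript design whose probe table was given. No column was left unmapped (0).

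Probe names came from that table and positions from RefSeq (GRCh38.p14). No scaling or level filter was applied. A gene with several clusters took the one with the highest mean, and 26 MIR-named long non-coding host genes were left out. Differences are compound 1 minus antagomir, described at 1.5-fold and 2-fold. Hairpins were compared by global alignment as identical bases over the longer hairpin.

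Members and lists were chosen with earlier results of these data known. Named by rule were MIR544A, the 10 highest and 5 lowest signals, the 10 largest differences, seed groups of 3 and hairpin pairs at least 80% identical. Summaries were tested on simulated data. Tools were limma 3.58.1 under R 4.3.3 (quantile normalization, cyclic loess) and Python 3.11.15 with biopython 1.88, pandas 2.3.3, numpy 2.4.6 and matplotlib 3.10.9. Precision is limited by the number of arrays.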

Additional observations from a re-analysis of the deposited data

How the results depend on the processing

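Settings tried were 3 scalings, a level filter, the downstream block alone, the mean over clusters, omission of MIR496 and, chosen after seeing the data, the settings for neighbours and for the count of higher members. Under the 3 scalings the median difference of the members stayed above 0 and the sign changed in at most 4 members (MIR2392, MIR493, MIR544A and MIR496, after cyclic loess). With a higher value at or above the 50th percentile of level, 13 members remained, 0 were higher and 0 lower past 1.5-fold, 0 passed 2-fold, and their median signals were 6.48 with the antagomir and 6.39 with compound 1, since this filter removes low signals by construction. With 90% identity in place of 80%, 2 hairpin pairs were counted. No paired analysis was possible because only 1 array stands for each treatment. Low signal limits most members: only 13 of 52 reached the median of either array.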

Other observations

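Genes known to control imprinting or transcription of the region are listed here as values. Of 12 listed genes 11 were named, 9 of them lower on the compound 1 array and 2 higher. Their median difference was -0.094, with 0 past 1.5-fold. After centring 10 were lower and 1 higher, and after cyclic loess 8 were lower and 3 higher. In the deposited values 51.5% of all named genes were lower, and 54.3% of protein-coding genes. The maintenance DNA methyltransferase gene DNMT1 was at 11.3 and 11.1 (difference -0.16), and the de novo methyltransferase genes DNMT3A and DNMT3B were at -0.17 each. UHRF1, which guides DNMT1 to replicated DNA, was at -0.094. CTCF, which encodes an insulator-binding protein, was at -0.12, and TRIM28, the corepressor of zinc finger proteins that protect imprints, at -0.072.

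Of those zinc finger genes, ZNF445 was at 7.43 and 7.19 (difference -0.24) and ZFP57 at 5.69 and 5.71 (0.015). MEF2A, whose protein drives transcription of the microRNAs in muscle and neurons, was at 7.79 and 7.70 (-0.094). MEF2D was at 10.39 and 10.38 (-0.016) and MEF2C at 4.68 and 4.79 (0.11). The difference of ZNF445 was 1.18-fold, and the other 10 were smaller in size.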
